A study of Mus musculus with 6 samples.

Results

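The genes of one stretch of mouse chromosome 4, from base 135000000 to 140000000 of mm10, were followed in Acta2 knockout and wild-type cardiac fibroblasts. A gene belongs to the segment when the midpoint of its coordinates in the deposited count table lies in that stretch. 88 genes met this rule, 2 of them were left out by it, and the remaining 86 of the 25746 genes in the table, 83 of them protein coding, are described here. The segment was chosen from the same comparison of RNA levels between Acta2 knockout and wild type that is given below. The RNA values of its genes are therefore a description, with no test, while the open-chromatin peaks, the sequences and the genes elsewhere in the pathway of Cda were not used to choose it.

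The study compared Acta2 knockout (KO) with wild-type (WT) mouse cardiac fibroblasts, the matrix-producing connective tissue cells of the heart, by RNA-seq in 2 KO and 2 WT libraries and by ATAC-seq, which maps open chromatin through transposase insertion, in 1 KO and 1 WT library. The protocols describe isolated fibroblasts from Acta2fl/fl and WT mice that were all given Adeno-Cre and then TGFβ for 2 days, and also eGFP+ cells of the Tcf21 lineage sorted from hearts. They do not say which of these a library came from. In the KO and WT labels alike, tamoxifen to activate MerCreMer was injected from an age of 6 weeks, on 5 days at a daily 75 mg per kg, the left coronary artery was ligated at 9 weeks, and a second tamoxifen course ran from 1 day before to 5 days after infarction. The promoter of MerCreMer is not named, and nothing states that replicates came from separate animals or cultures, so the spread behind a p-value is that of these samples alone and may be technical.

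Genes that lie next to each other on a chromosome need not share a function. The segment holds the 3 adjacent genes of complement C1q, the pattern-recognition molecule that starts the classical complement pathway and is made mainly by macrophages, and a cluster of secreted phospholipases A2, enzymes that release fatty acids from phospholipids outside cells. It also holds Cda, which encodes cytidine deaminase, the enzyme that turns cytidine and deoxycytidine into uridine and deoxyuridine in pyrimidine salvage, and Hspg2, which encodes the basement membrane proteoglycan perlecan.

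In depth, KO libraries summed to 11370115 and 10864365 estimated counts, WT libraries to 8429166 and 9096811. Acta2 itself had 2921 and 2909 counts in KO, against 18230 and 19890 in WT, a log2 fold change of -3.07 (SE 0.030). Of the 9 fibroblast markers, 9 were tested and 7 were lower in KO (median log2 fold change -0.46), or 77.8% beside 17.4% of all tested genes. Their summed level was 4447 and 4425 CPM (counts scaled to a fixed library size) in KO against 5753 and 5650 CPM in WT. Over the genes that reached a minimum summed count in the pair compared, the KO pair differed with a chi-square of 1.99 per degree of freedom. The WT pair differed with 1.77, against 17.4 to 18.1 between genotypes.

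Of the 86 genes in the segment, 54 had enough counts to be tested. 28 of these passed the threshold as higher in KO and 8 as lower (edgeR's quasi-likelihood test, Benjamini-Hochberg adjusted p under 0.05 over 12192 genes). That is 66.7% of the tested genes of the segment, beside 35.7% of all tested genes, with 51.9% higher beside 18.3% and 14.8% lower beside 17.4%. Since the segment was picked on this contrast, nothing is read from these shares, or from the counts of gene groups within the segment given below. The median log2 fold change was 0.30 in the segment and 0.00 over all tested genes, and 39 of the 54 values were positive. In 34 of the 54 both KO libraries lay above both WT libraries, in 15 both lay below, and in 5 the genotypes overlapped, so that 90.7% did not overlap. Such separation of 2 libraries from 2 was common throughout this comparison: over all tested genes 67.1% did not overlap, 4184 with KO above and 3998 with KO below. The 5 segment genes that overlapped were all among those not past the threshold. Where a lack of overlap is given below for genes past it, this adds nothing to their call. These are bulk samples, in which fewer cells of a type and less RNA per cell cannot be told apart.

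**Figure D1:**
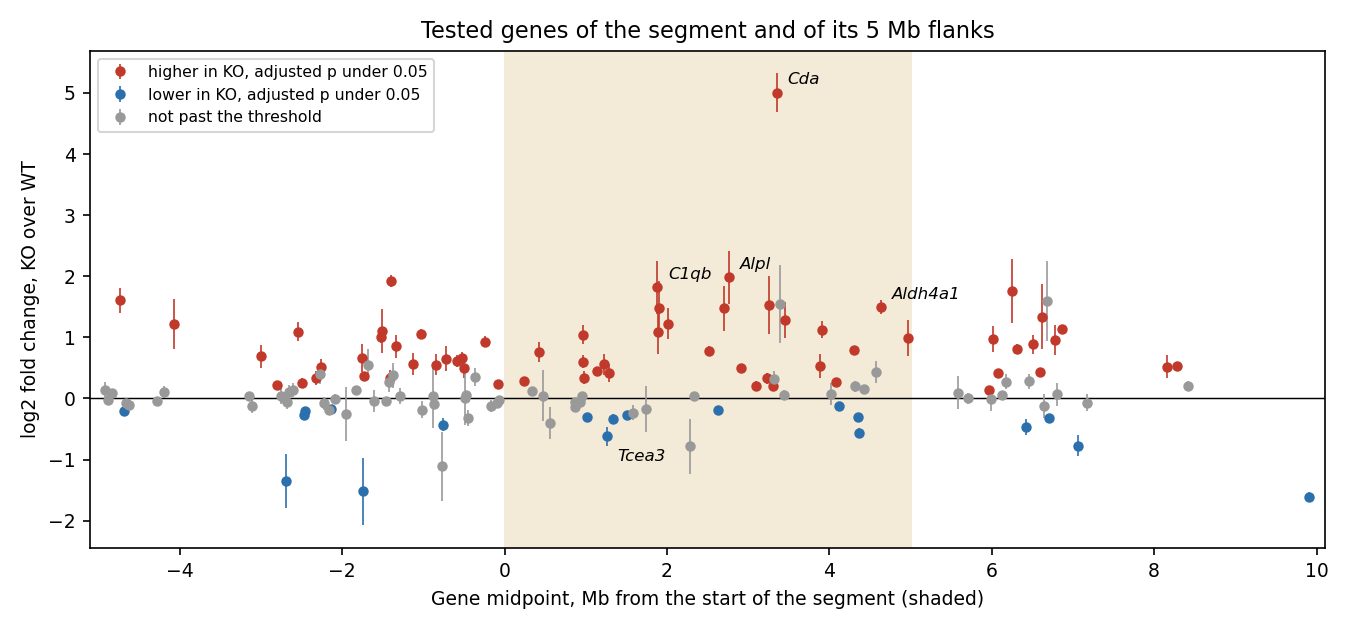
Log2 fold change, KO over WT, with its SE (bars), for each tested gene against its midpoint in Mb from the start of the segment, which is shaded, with 5 Mb on either side. Of the 54 genes in the segment 28 were higher and 8 lower in KO; Cda stands apart at 5.01.

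The values are described Mb by Mb, with no test of a difference along the segment. The first Mb had 12 tested genes, of which 5 were higher and 0 lower, and its median log2 fold change was 0.08. The second Mb, also with 12, had 6 higher and 4 lower and a median of 0.13. The third had 5 higher and 1 lower of 8 (median 0.63), the fourth 8 higher and 0 lower of 11 (median 0.53), and the fifth 4 higher and 3 lower of 11 (median 0.20). At an unadjusted p of 0.05, edgeR had 1 lower gene in the first Mb and 0 in the fourth, and DESeq2 had 0 in both. The longest run of neighbouring tested genes with 1 sign was 16 positive values, from Rap1gap at base 137664726 to Nbl1 at base 139092993. It spans Cda. The lower genes stood singly or in small groups between higher ones: Eloa beside Pithd1, Tcea3 between Asap3 and Zfp46, Usp48 between Hspg2 and Rap1gap. Higher genes lay on both strands, 14 on the plus and 14 on the minus strand.

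**Figure D2:**
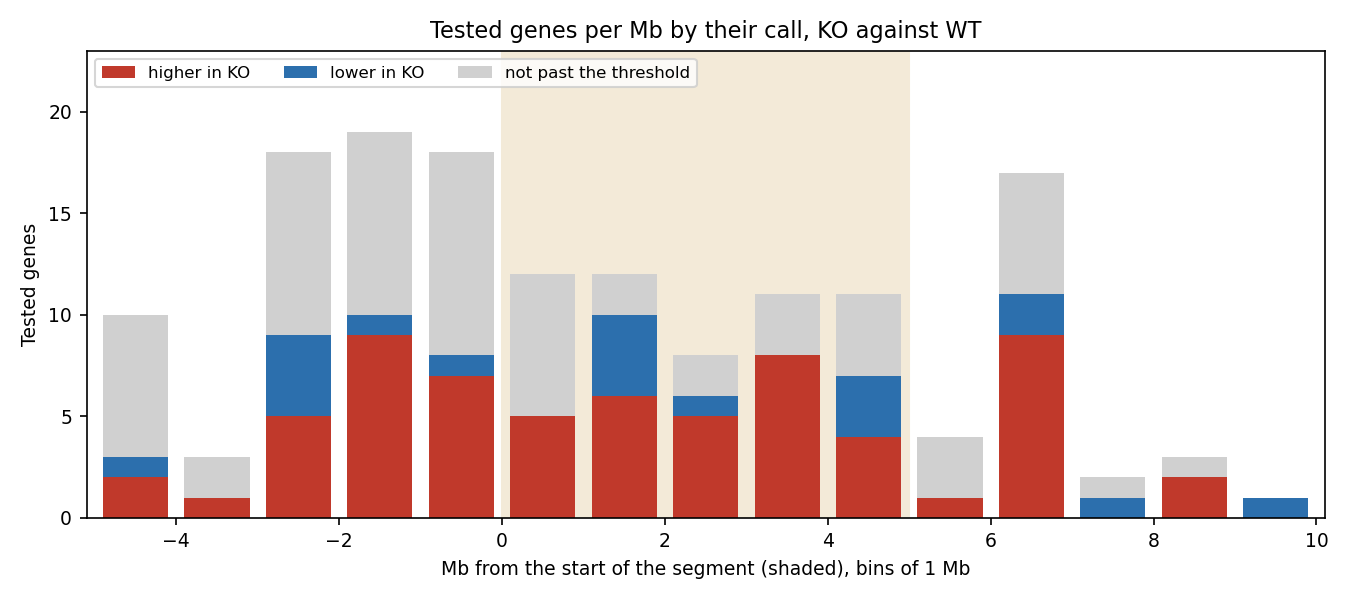
Number of tested genes in each 1 Mb bin, by call, against Mb from the start of the segment, which is shaded. The fourth Mb of the segment holds 8 genes higher and 0 lower in KO, and the second Mb holds 6 higher and 4 lower.

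The flanks were described in the same way. In the 5 Mb to the left, from base 130000000, 24 of 68 tested genes were higher and 7 lower in KO, and the median log2 fold change was 0.10. In the 5 Mb to the right, up to base 145000000, 27 genes were tested, 12 were higher and 4 lower, and the median was 0.27. On the rest of chromosome 4, flanks included, 148 of 699 were higher and 117 lower, with a median of 0.01. That is 21.2% higher and 16.7% lower. The left flank had 35.3% higher and 10.3% lower and the right flank 44.4% and 14.8%, beside 18.3% and 17.4% of all tested genes. The difference between the segment and its flanks was not tested, because the bounds were set with the values known. Genes just inside the bounds were Runx3, with 1 and 1 counts in KO and 0 and 0 in WT, Clic4, with a log2 fold change of 0.28, and at the other end Pax7, at 0 in every library, and Klhdc7a, with 0.99. Just outside lay Syf2 (-0.03) and Rsrp1 (0.23) at the low end. At the high end the nearest tested gene, Arhgef10l (0.10), was 590 kb away. The 3 flank genes with the largest changes on the left were Sfn, which encodes the 14-3-3 protein sigma, with a log2 fold change of 1.92, Serinc2 with 1.61 and Sytl1 with -1.52. On the right they were Arhgef19 with 1.76, Dhrs3, a retinaldehyde reductase, with -1.61, and Tmem82 with 1.34.

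Among the metabolic genes, Cda had the largest difference of the segment. It is transcribed on the minus strand of chr4:138338424-138367992 and had 194 and 146 counts in KO, against 2 and 6 counts in WT, or 17.0 and 13.3 CPM in KO against 0.24 and 0.66 CPM in WT. Both KO libraries were far above both WT libraries. The log2 fold change was 5.01 (SE 0.31). With 340 summed counts in KO and 8 in WT, the ratio per library size was 33.0, with an exact 95% interval of 16.6 to 77.1 that covers counting error only. The fitted log2 fold change was 5.91 without WT replicate 2 and 4.49 without WT replicate 1, so the size of the ratio rests on a few WT counts. Per kb of exon, Cda reached 14.6 ± 2.51 CPM per kb in KO and 0.44 ± 0.29 in WT (SD, n = 2 each). Its neighbours on either side gave smaller differences or few counts. Pink1, the mitochondrial quality-control kinase, had 194 and 200 counts in KO and 107 and 140 in WT, a log2 fold change of 0.31 that did not pass, and Fam43b had 14 and 13 counts in KO and 6 and 1 in WT. Fam43b shares 37.7% of its exon bases with AB041806, so its counts are uncertain.

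The promoter of Cda is shown because this gene carries the largest difference. It is the RefSeq sequence of GRCm38.p6 from 250 bases before to 50 after the RefSeq start site (chr4:138367906-138368205, minus strand). The capitals mark the only match found to 6 searched motifs.
Cda promoter: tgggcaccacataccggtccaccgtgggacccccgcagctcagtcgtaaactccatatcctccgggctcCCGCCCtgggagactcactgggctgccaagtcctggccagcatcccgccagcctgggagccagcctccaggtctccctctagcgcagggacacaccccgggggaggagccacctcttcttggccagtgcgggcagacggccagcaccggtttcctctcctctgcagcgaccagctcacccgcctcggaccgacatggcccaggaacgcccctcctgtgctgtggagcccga
The 6 motifs, each looked for on both strands, were TGAGTCA, known as the AP-1 site, the GC box GGGCGG, the TATA box letters TATAAA, the CCAAT box, the TEAD site GGAATG and the E-box CACGTG. In Cda the match is GGGCGG on the other strand, beginning 181 bases before the start site. The letters GGGCGG occurred in 42 of the 74 promoters of the segment that were matched by symbol. Over 27025 RefSeq promoters of the same length the share was 35.9%. These sets differ in base composition. The median share of G and C was 65.3% in promoters of tested segment genes, 61.0% over tested genes and 52.7% over all promoters. The share with GGGCGG among tested genes elsewhere was not computed, so no excess is read from these values.

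Aldh4a1, which encodes the mitochondrial dehydrogenase of the last step of proline breakdown, had 402 and 391 counts in KO, against 107 and 112 counts in WT. The 2 genotypes did not overlap, and the replicates lay within a few percent of each other. The log2 fold change was 1.49 (SE 0.11), and the level was 7.23 ± 0.066 CPM per kb in KO and 2.57 ± 0.064 CPM per kb in WT (SD, n = 2 each). 32.5% of its exon bases lie in Gm21969, which is listed at 0 in every library, so the split of reads between these genes is uncertain. The Aldh4a1 promoter (chr4:139622644-139622943, plus strand, RefSeq, GRCm38.p6) is shown because CCAAT matched it 3 times. The capitals mark these matches, all on the other strand and so printed as ATTGG.
Aldh4a1 promoter: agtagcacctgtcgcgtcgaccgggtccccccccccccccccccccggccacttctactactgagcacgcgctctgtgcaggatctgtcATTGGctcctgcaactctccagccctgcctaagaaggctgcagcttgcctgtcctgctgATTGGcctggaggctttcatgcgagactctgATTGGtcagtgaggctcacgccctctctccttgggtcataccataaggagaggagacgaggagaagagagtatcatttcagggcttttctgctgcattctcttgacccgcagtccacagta
CCAAT occurred in 25 of the 74 matched promoters of the segment and in 37.9% of all promoters. The first bases of the 3 matches lie 161, 102 and 71 bases before the start site.

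Of the 11 metabolic genes, all of them tested, 4 were higher in KO, Cda, Aldh4a1 and Alpl among them, 1 was lower (Micos10) and the median log2 fold change was 0.20. Alpl, the tissue-nonspecific alkaline phosphatase that marks mineralizing cells, had 32 and 30 counts in KO, against 6 and 6 counts in WT. The log2 fold change was 1.99 (SE 0.43). The ratio of summed counts per library size was 4.01, with an exact 95% interval of 2.14 to 8.18 that covers counting error only. At a mean of 0.69 CPM per kb in KO and 0.17 in WT it was among the lowest tested genes of the segment. Micos10, a subunit of the complex that holds mitochondrial cristae, had 2616 and 2514 counts in KO, against 2191 and 2162 counts in WT, which is 229 and 229 CPM in KO against 263 and 239 CPM in WT (log2 fold change -0.13). It lost its call when any library other than WT replicate 2 was left out. The lysosomal fucosidase gene Fuca1 (-0.07), Akr7a5 (0.20), Mul1 (0.06), Pink1 (0.31) and Tmco4 (0.07) were among the genes that did not pass. The promoter of Alpl (chr4:137796335-137796634, minus strand, RefSeq, GRCm38.p6) is shown for its 3 matches to GGGCGG, in capitals, the first pair of which share a base.
Alpl promoter: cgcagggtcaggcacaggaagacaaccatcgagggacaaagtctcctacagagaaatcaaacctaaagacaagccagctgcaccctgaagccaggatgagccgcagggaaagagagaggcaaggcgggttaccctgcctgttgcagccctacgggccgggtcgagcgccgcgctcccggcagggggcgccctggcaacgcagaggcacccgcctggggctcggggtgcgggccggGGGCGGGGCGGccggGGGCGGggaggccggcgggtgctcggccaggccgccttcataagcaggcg

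The other genes of pyrimidine salvage and breakdown lie outside the segment and were not used to choose it. Of 26 listed genes 23 were tested, Cda among them. Beside Cda, 3 were higher in KO and 3 lower, with 16 not past the threshold. That is 13.6% higher and 13.6% lower, below the 18.3% and 17.4% of all tested genes. Cmpk2, a mitochondrial nucleotide kinase, had 465 and 462 counts in KO, against 258 and 244 counts in WT (log2 fold change 0.52, adjusted p = 5.67e-05 by edgeR). Its libraries did not overlap between genotypes. Ctps2, which makes CTP from UTP, had a log2 fold change of -0.31 (adjusted p = 0.00373 by edgeR), and Cdadc1, a cytidine deaminase-like gene, one of -0.30 (adjusted p = 0.0264 by edgeR). The other 3 that passed were Dtymk (0.21), Samhd1 (0.15) and Nt5c3b (-0.17), named after their values were seen. Without either KO library, or by DESeq2, 2 genes of the list, Cda included, were higher in KO, and DESeq2 called 0 lower, or 1 at an unadjusted p of 0.05. The median log2 fold change of the list without Cda was -0.13, with 5 of 22 values positive.

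**Figure D3:**
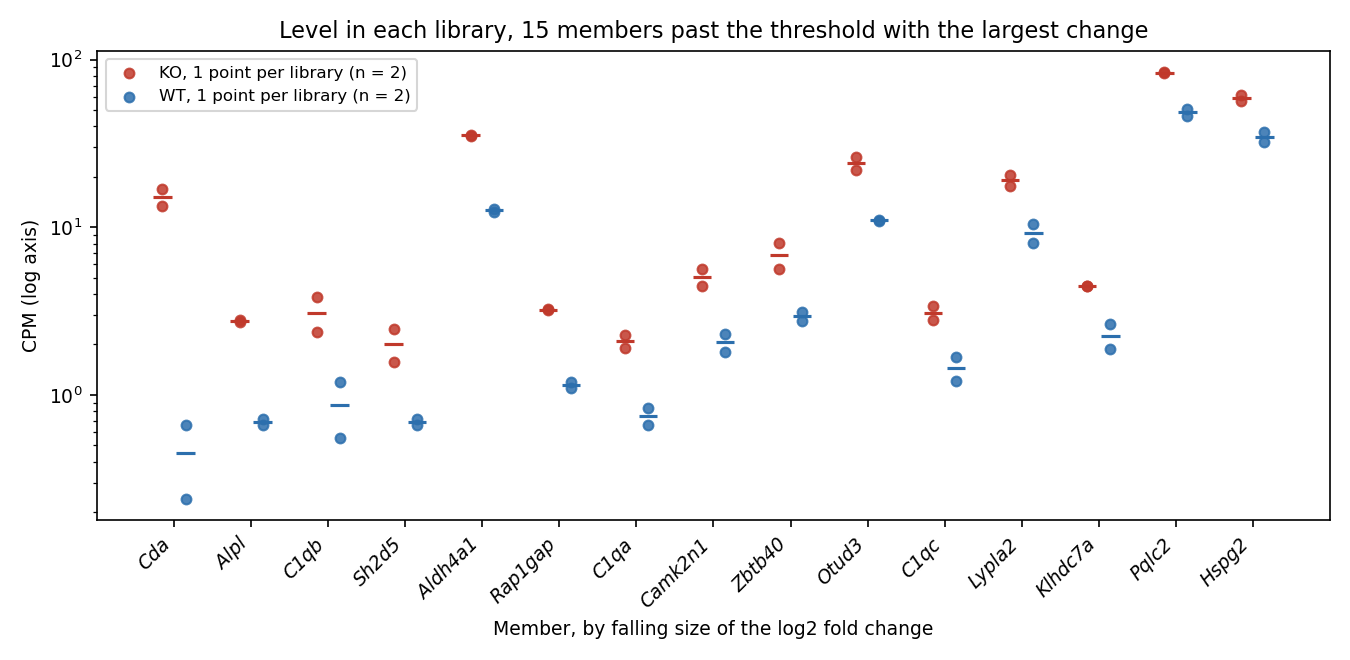
Level in CPM on a log axis of the 15 genes of the segment past the threshold with the largest log2 fold changes, 1 point per library and a line at the mean of 2, KO at the left and WT at the right of each gene. The 15 genes were picked by this same contrast, and the libraries of every segment gene past the threshold were separate. That the 2 KO points lie above the 2 WT points in each of the 15 is therefore no further support.

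The 3 C1q genes, which encode the A, B and C chains of C1q, sit side by side between bases 136880129 and 136898803 and were all higher in KO. C1qa had 26 and 21 counts in KO, against 7 and 6 counts in WT. C1qb had 27 and 42 counts in KO, against 10 and 5 counts in WT. C1qc had 32 and 37 counts in KO, against 14 and 11 counts in WT. Each gene was higher in both KO libraries than in both WT libraries, and by CPM per kb of exon they ranked 40, 43 and 44 (C1qb, C1qa and C1qc) of the 54 tested genes. Their log2 fold changes were 1.47, 1.82 and 1.09. The intervals of the count ratios were 1.49 to 5.66 for C1qa, 2.02 to 6.73 for C1qb and 1.34 to 3.54 for C1qc. They sum the libraries of a genotype and cover counting error only, not the spread between libraries. C1qa passed in only 1 of the 4 fits that leave out a library, the one without WT replicate 1, and C1qc in the 2 fits without KO replicate 1 or WT replicate 1. C1qb passed in all but the fit without KO replicate 2. By DESeq2 C1qa and C1qc did not pass.

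Macrophage markers were set beside the C1q genes. Of 12 listed markers 7 were tested, 4 were higher in KO and 0 lower, with a median of 0.71 on the log2 scale. That is 57.1% higher, beside 18.3% of all tested genes. The summed level of the listed markers was 183 and 181 CPM in KO against 108 and 103 CPM in WT. Adgre1, which encodes the F4/80 antigen, had 66 and 80 counts in KO and 13 and 25 counts in WT. At an unadjusted p of 0.05, edgeR and DESeq2 also had 0 of these markers lower. Csf1r, the receptor macrophages need to survive, had a log2 fold change of 0.23 that did not pass, Fcgr1 was at 0 in every library, and Aif1 had 1 count in all. Such changes were not confined to macrophage markers, since 7 of 8 endothelial markers were also higher in KO. The part of macrophage RNA in the C1q values was not tested. The promoters of C1qb (chr4:136886151-136886450) and C1qc (chr4:136892865-136893164), both on the minus strand from RefSeq for GRCm38.p6, are printed to set these neighbours side by side, with motif matches in capitals.
C1qb promoter: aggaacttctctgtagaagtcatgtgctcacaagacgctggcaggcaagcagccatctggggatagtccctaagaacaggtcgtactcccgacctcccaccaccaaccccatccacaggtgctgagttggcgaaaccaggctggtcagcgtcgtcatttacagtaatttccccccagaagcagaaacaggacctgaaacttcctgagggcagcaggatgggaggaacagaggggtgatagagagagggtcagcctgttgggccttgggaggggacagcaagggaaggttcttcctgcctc
C1qc promoter: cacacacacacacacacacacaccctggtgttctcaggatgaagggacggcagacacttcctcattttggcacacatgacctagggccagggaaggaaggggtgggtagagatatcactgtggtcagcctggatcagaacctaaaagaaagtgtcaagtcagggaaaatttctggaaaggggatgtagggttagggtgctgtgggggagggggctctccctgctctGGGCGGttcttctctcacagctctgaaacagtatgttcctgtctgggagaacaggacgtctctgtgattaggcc
C1qb held none of the 6 motifs, and C1qc held GGGCGG beginning 24 bases before its RefSeq start.

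Of the 6 secreted phospholipases A2, only Pla2g2e had enough counts to be tested, with 86 and 98 counts in KO against 49 and 50 counts in WT (log2 fold change 0.53). It did not pass in 3 of the 4 fits that leave out a library. Pla2g5 had 6 and 4 counts in KO and 3 and 1 in WT, Pla2g2d had 1 count in 1 KO library, and Pla2g2a, Pla2g2c and Pla2g2f were at 0 in all 4.

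Of the 15 genes of ligands, receptors and signalling, 9 were tested, 6 were higher in KO and 0 lower, and the median log2 fold change was 0.46. By DESeq2 4 were higher, and at an unadjusted p of 0.05 both edgeR and DESeq2 had 0 lower. Id3, an inhibitor of basic helix-loop-helix transcription factors and a target of BMP signalling, had 1687 and 1520 counts in KO, against 833 and 985 counts in WT (log2 fold change 0.46). Nbl1, a secreted BMP antagonist, had 1133 and 1039 counts in KO, against 678 and 717 counts in WT (0.27). Both were higher in each KO library by CPM. Rcan3, a regulator of the phosphatase calcineurin, had 175 and 185 counts in KO, against 94 and 71 counts in WT (0.76). Camk2n1, an inhibitor of the kinase CaMKII, had 64 and 49 counts in KO, against 15 and 21 counts in WT (1.28). Rap1gap, which switches off the small GTPase Rap1, had 37 and 35 counts in KO, against 10 and 10 counts in WT (1.47). The genotypes did not overlap in any of these 5, as in every segment gene past the threshold. Asap3, an Arf GTPase-activating protein, was the remaining gene higher in KO (0.56), though not without KO replicate 1 or without WT replicate 1. The abundant small GTPase gene Cdc42 had 578 and 564 CPM in KO, against 547 and 568 CPM in WT, and its genotypes overlapped. Wnt4 had 13 and 10 counts in KO, against 11 and 20 counts in WT, and did not pass. The receptor genes Cnr2, Il22ra1, Ifnlr1, Epha8, Htr6 and Tas1r2 were not tested and had at most 5 counts in any library.

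Among 18 genes of transcription, chromatin and RNA processing, 15 were tested, 5 were higher in KO and 5 lower, and the median log2 fold change was -0.14. The 5 higher genes were Lypla2, Zbtb40, Zfp46, Hp1bp3 and Eif4g3, and the 5 lower ones Tcea3, Hnrnpr, Eloa, Mrto4 and Luzp1. Lypla2, placed on this list although it encodes an acyl-protein thioesterase, had 201 and 224 counts in KO, against 87 and 73 counts in WT (1.04). Zbtb40, a zinc-finger protein gene, had 92 and 62 counts in KO, against 26 and 25 counts in WT (1.22). Both were higher in each KO library. Eloa, the elongin A subunit that aids RNA polymerase II elongation, had 148 and 143 CPM in KO, against 183 and 177 CPM in WT (-0.30). Luzp1 had 136 and 133 CPM in KO, against 160 and 165 CPM in WT (-0.28). Mrto4, a factor of ribosome assembly, had 116 and 106 CPM in KO, against 144 and 131 CPM in WT (-0.30). In each of these 3 both KO libraries lay below both WT libraries. Tcea3, an elongation factor paralog, had 13.3 and 9.67 CPM in KO, against 18.5 and 17.0 CPM in WT, and had the most negative log2 fold change of the called genes (-0.62). It did not pass without KO replicate 2. Zfp46, Eif4g3 and Hp1bp3 had small changes (0.42, 0.21 and 0.33), and Zfp46 and Eif4g3 passed in 0 of the 4 fits that leave out a library. Eloa shares 10.8% of its exon bases with Gm13008. Runx3, E2f2 and Pax7 were not tested.

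Of 9 genes of the endoplasmic reticulum, the ubiquitin system and peptidases, 7 were tested, 4 were higher in KO and 2 lower, with a median log2 fold change of 0.20. Ece1, the endothelin-converting enzyme, had 2146 and 1932 counts in KO, against 1095 and 1157 counts in WT (0.49). Otud3, a deubiquitinase, had 249 and 287 counts in KO, against 92 and 99 counts in WT (1.12). Ddost, a subunit of the oligosaccharyltransferase that glycosylates new proteins, had 467 and 452 CPM in KO, against 405 and 393 CPM in WT (0.20). None of these 3 overlapped between genotypes. Emc1, of the complex that inserts membrane proteins, had 421 and 370 counts in KO, against 455 and 455 counts in WT, which is 36.9 and 33.8 CPM in KO against 54.6 and 50.3 CPM in WT (-0.57). 30.9% of its exon bases lie in other genes, with 2700016F22Rik as the main partner, so its value is uncertain. The other higher gene was Pithd1 (0.34), the other lower one the deubiquitinase gene Usp48 (-0.20), and Ubr4 (0.15) did not pass. Pithd1 did not pass without KO replicate 2 or without WT replicate 2, and of the 4 fits that leave out a library Usp48 passed only in the one without WT replicate 2. Of 8 endothelial markers, 7 were higher in KO (87.5%, beside 18.3% of all tested genes) and 1, Flt1, was lower. The 8 summed to 127 and 134.9 CPM in KO against 97.0 and 89.9 CPM in WT. Their part in these values was not tested.

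Otud3 is shown because its promoter (chr4:138913919-138914218, minus strand, RefSeq, GRCm38.p6) held both a GC box on each strand and CACGTG, all in capitals.
Otud3 promoter: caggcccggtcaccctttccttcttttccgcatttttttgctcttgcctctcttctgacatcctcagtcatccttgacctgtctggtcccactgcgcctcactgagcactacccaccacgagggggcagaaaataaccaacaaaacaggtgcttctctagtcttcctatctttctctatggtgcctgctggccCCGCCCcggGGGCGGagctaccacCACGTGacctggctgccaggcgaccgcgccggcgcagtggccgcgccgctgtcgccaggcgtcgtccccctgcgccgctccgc
CACGTG occurred in 5 of 74 promoters of the segment and in 7.24% of all promoters. TGAGTCA was found in 1 of 74 against 5.17%, TATAAA in 4 of 74 against 14.2% and GGAATG in 6 of 74 against 14.6%. Of the promoters matched, 22 belong to genes higher in KO and 8 to genes lower in KO, and GGGCGG was in 15 of the 22 and in 5 of the 8. A match describes the letters alone.

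Of 7 genes of matrix, cytoskeleton and ion channels, 4 were tested, and 2 were higher in KO. Hspg2 had 701 and 624 counts in KO, against 309 and 291 counts in WT (0.78). Clic4, a chloride intracellular channel protein gene, had 648 and 657 CPM in KO, against 533 and 540 CPM in WT (0.28). Both genes were higher in each KO library, while Nipal3 (0.05) and Iffo2 (0.43) did not pass. Per kb of exon, Ddost was the most abundant gene of the segment at 217 ± 4.80 CPM per kb in KO and 188 ± 3.85 CPM per kb in WT. It was followed by Cdc42 at 193 ± 3.25 in KO and 188 ± 5.06 in WT, Fuca1 at 120 ± 0.85 in KO and 125 ± 4.35 in WT, and Clic4 at 99.3 ± 0.93 in KO and 81.7 ± 0.79 in WT (CPM per kb, SD, n = 2 each). In WT, Ddost and Cdc42 differed by less than their spread. Genes higher in KO stood among the most abundant and among the rarest of the segment.

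17 genes were on no role list. Of these 4 were tested and 3 were higher in KO. Pqlc2, the lysosomal exporter of cationic amino acids, had 961 and 910 counts in KO, against 422 and 419 counts in WT (0.79). Klhdc7a had 51 and 49 counts in KO, against 22 and 17 counts in WT (0.99), and did not pass without WT replicate 2. Sh2d5 had 18 and 27 counts in KO, against 6 and 6 counts in WT (1.53), and passed in 1 of the 4 fits that leave out a library, the one without KO replicate 1. All 3 were higher in both KO libraries. Of the 32 genes of the segment that were not tested, 18 were at 0 in every library, and the highest count of any was 9. Among all 36 genes past the threshold, 12 differed at least 2-fold, all of them higher in KO, and 18 differed by less than 1.5-fold.

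The ATAC-seq peaks were not used to choose the segment, but they compare the same genotypes as the RNA values that chose it. They come from 1 library per genotype, so no difference between genotypes was tested, and a fold enrichment, the authors' own value for each peak, is placed only within its own list. KO had 804 peaks in the segment, which covered 904 kb with a median width of 801.5 bp, and WT had 761 peaks, which covered 791 kb with a median width of 747 bp. In the whole lists there were 121748 KO peaks and 123935 WT peaks. In the segment, 256 of the KO peaks (31.8%, 95% Wilson interval 28.7 to 35.1%) overlapped no WT peak, beside 23.7% over the genome. Of the WT peaks 199 (26.1%, 23.2 to 29.4%) overlapped no KO peak, beside 24.4% over the genome. The KO share was 25.7% in the left flank and 32.2% in the right flank, and the WT share was 27.0% in the left and 23.9% in the right. Within the segment the KO share was 29.3%, 27.3%, 27.2%, 34.7% and 40.6% from the start to the end of the segment, Mb by Mb, and the WT share was 25.9%, 27.1%, 24.0%, 30.8% and 24.3%. The KO shares of the last 2 Mb were thus the highest, and the right flank was as high as the segment as a whole. Intervals cover counting error only.

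**Figure D4:**
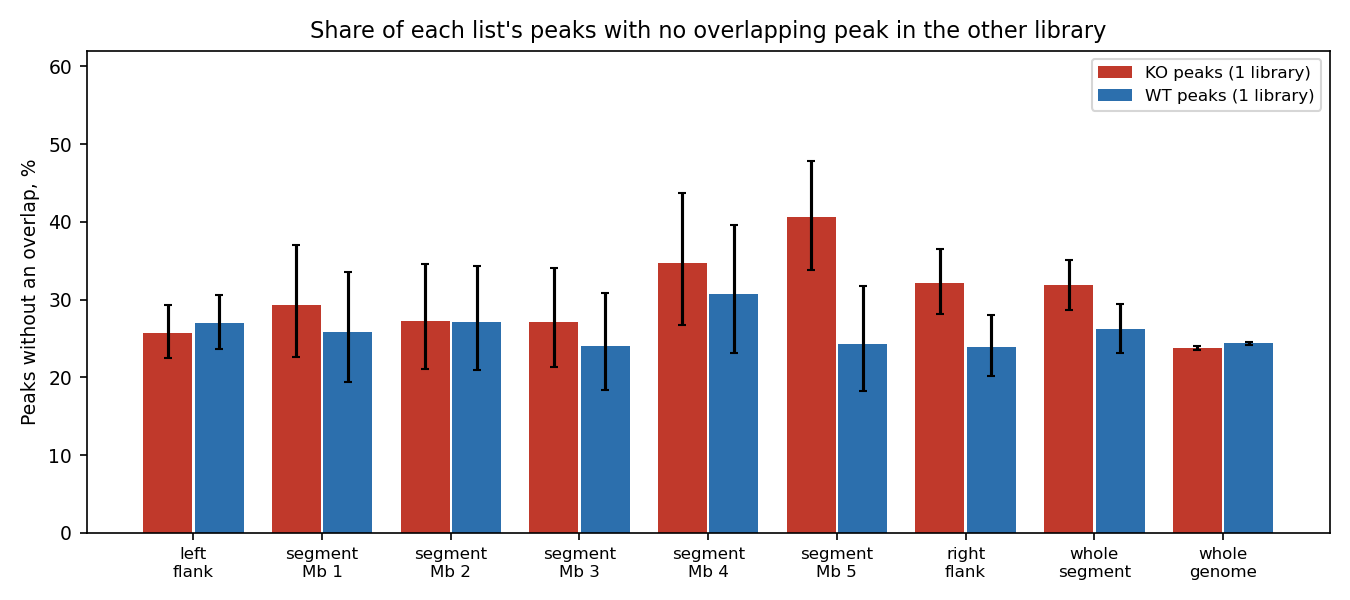
Share, in percent, of the KO peaks and of the WT peaks that overlap no peak of the other library, with 95% Wilson intervals (bars, counting error only), for the flanks, each Mb of the segment, the segment and the genome. KO reaches 40.6% in the fifth Mb of the segment, where WT is at 24.3%.

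Peaks without a counterpart were mostly weak. Their median fold enrichment was 4.25 in KO, where the median of all KO peaks in the segment was 5.95, and 4.11 in WT, where it was 5.34. When only peaks with a −log10 q-value of at least 5 were counted, 17.7% of KO and 9.51% of WT peaks in the segment had no counterpart, beside 11.2% of KO and 7.38% of WT peaks over the genome. With that limit in both lists, 32.8% of KO and 13.9% of WT peaks in the segment had no counterpart, beside 24.3% of KO and 13.1% of WT peaks over the genome. The KO peak with the highest fold and no WT counterpart lay at chr4:139336749-139337556, with a fold of 13.2. It was outside the genes described here, the only ones looked at, and 15465 bases downstream of the start of Mrto4. The next lay within Ece1, with a fold of 11.1. The highest WT peak with no KO counterpart had a fold of 7.39 and lay in Kdm1a, which encodes the histone demethylase LSD1.

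At start sites nearly all genes with a peak had it in both libraries. A peak within 1000 bp of the annotated start was present for 69 of the 86 genes in KO and 68 in WT, 65 of them in both. Of the 54 tested genes, 51 had a start-site peak in both libraries and the other 3, Iffo2, C1qa and C1qb, had it in neither. Over all tested genes, 93.6% had one in KO and 93.6% in WT. All 8 genes lower in KO and 26 of the 28 higher in KO had a peak in both libraries. The nearest peak of C1qc was centred 1124 bases before the start in KO, with a fold of 12.8, and 1141 bases before it in WT, with a fold of 6.98. The start-site peak of Aldh4a1 had a fold of 40.4 in KO, above 99.8% of the KO list, and of 28.8 in WT, above 98.8% of the WT list. That of Alpl stood at 8.50 in KO, above 66.1% of its list, and at 11.9 in WT, above 83.0% of its list. Places in lists of different lengths, each from 1 library, cannot show whether a site changed between genotypes.

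Cda had open chromatin in both libraries. Its start-site peak was 1932 bp wide with a fold of 18.7 in KO, above 90.7% of the KO peaks, and 1001 bp wide with a fold of 7.80 in WT, above 67.6% of the WT peaks. A peak in the gene body was centred 11374 bases into the gene in KO (chr4:138355961-138357212), with a fold of 25.1, above 96.2% of the list. The WT peak that overlaps it (chr4:138356310-138357051) had a fold of 4.52, above 33.2% of its list. A further peak, at chr4:138342823-138345744 in KO with a fold of 26.4, above 97.0% of the list, overlapped 2 WT peaks with folds of 23.4 and 15.2, above 96.9% and 89.1% of theirs. Within 10 kb of the gene, KO had 8 peaks, 5 of them without a WT counterpart, and WT had 6, 2 of them without a KO counterpart. Around Alpl KO had 15 peaks, 8 without a counterpart, and WT 9 with 2. Around Rcan3 KO had 8 with 5, and WT 3 with 0. Around Aldh4a1 it was the other way round, with 10 peaks in KO, 1 of them without a counterpart, and 15 in WT, 5 of them without one. Summed over genes, so that a peak near several genes counts for each, peaks without a counterpart numbered 240 in KO and 196 in WT for all 86 genes. They numbered 71 in KO and 62 in WT for the genes higher in KO, and 21 in KO and 18 in WT for those lower in KO.

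**Figure D5:**
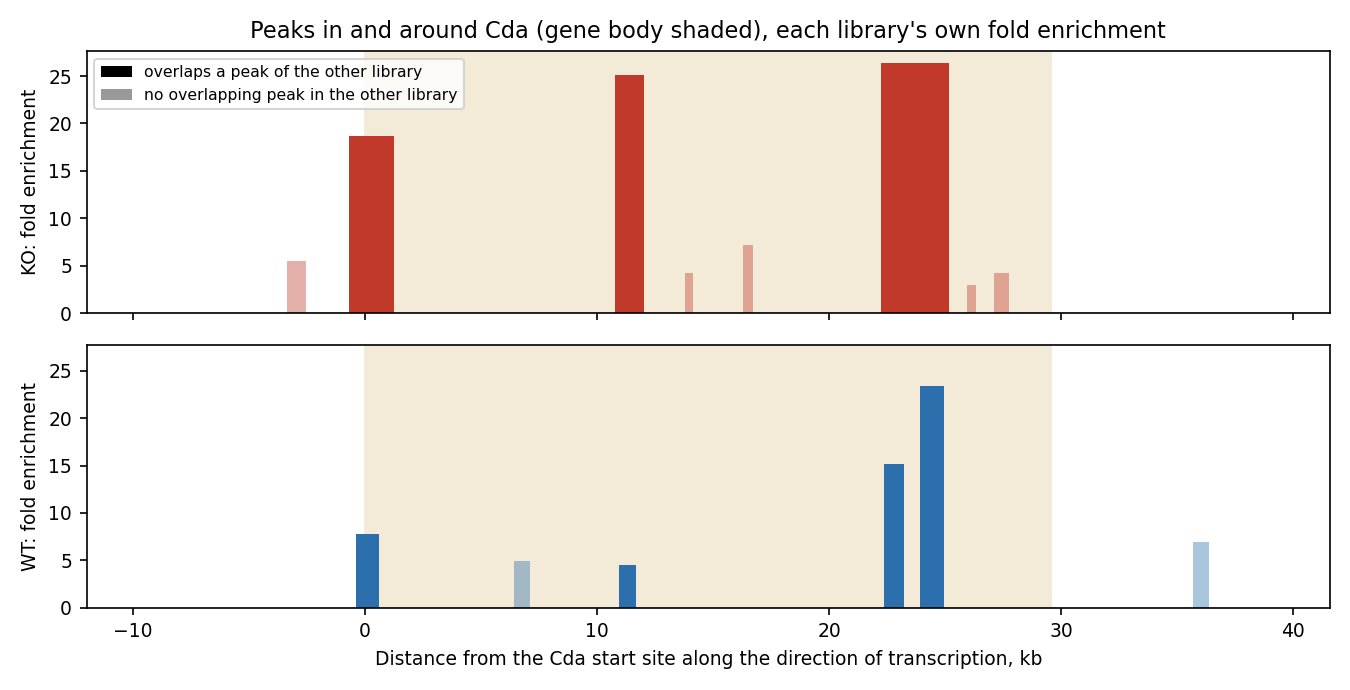
Fold enrichment of each peak in and around Cda against distance in kb from its start site along the direction of transcription, KO above and WT below, with the gene body shaded and bar width equal to peak width. The peak about 11 kb into the gene has a fold of 25.1 in the KO list and 4.52 in the WT list. The peaks about 24 kb into it reach 26.4 in the KO list and 23.4 in the WT list. Each fold belongs to its own list, and no difference between genotypes was tested.

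The gene-body peak of Cda is shown because both libraries share it and it holds TGAGTCA on each strand. The sequence is the 300 bases around its KO summit, read from the RefSeq genome of GRCm38.p6 on the plus strand (chr4:138356468-138356767), with motif matches in capitals.
Cda gene-body peak: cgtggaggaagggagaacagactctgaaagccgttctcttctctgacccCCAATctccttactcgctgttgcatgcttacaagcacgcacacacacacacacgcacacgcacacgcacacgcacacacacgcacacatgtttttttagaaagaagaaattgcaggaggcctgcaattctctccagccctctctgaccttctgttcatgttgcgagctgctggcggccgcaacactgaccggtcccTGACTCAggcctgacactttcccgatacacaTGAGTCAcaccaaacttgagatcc
TGAGTCA is there once on each strand, printed as TGACTCA on the minus strand, beginning 95 and 126 bases after the summit, and CCAAT once. TGAGTCA occurred in 119 of 804 such windows around the KO peaks of the segment (14.8%), and CCAAT in 29.5% of the windows. Promoters, with TGAGTCA in 5.17%, are a different kind of sequence. The share in peaks outside the segment was not computed, so no excess in the segment is read from these values. No factor's binding was measured.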

How the data were processed

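RNA-seq of 2 KO and 2 WT libraries and ATAC-seq of 1 library per genotype were used, grouped by the genotype in the labels. For RNA-seq the authors deposited estimated counts, 1 value per gene and library. Per the labels' protocols and the submitters' processing notes, reads of 150 bp in pairs were trimmed by Trim Galore 0.6, checked by FastQC and mapped by STAR 2.5.3a to mm10. For the counting program and its annotation, the sources used here give none. The protocols speak of TPM, but the values sum to 8429166 to 11370115 per library, with fractions in 10.8 to 12.2% of them, so they were taken as estimated counts and rounded. The library kit is not stated to keep strand, so overlapping antisense genes cannot be told apart.

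The deposited peak lists hold, in the column order of MACS2, which the labels name, an integer score, a fold enrichment (ratio) and −log10 p-values and −log10 q-values for each peak. Per the labels, peaks were called in each library separately after alignment with Bowtie2 2.3 and removal of duplicates and mitochondrial reads, from 10000 cells. The ATAC-seq depth and the version of MACS2 are not given here.

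Genes were tested over the whole table in R 4.3.3 with edgeR 4.0.16, using TMM factors after filterByExpr at a minimum count of 10, a quasi-likelihood fit of genotype alone and Benjamini-Hochberg adjustment over 12192 genes at 0.05. CPM uses TMM-scaled library sizes, and CPM per kb divides it by the union of exon bases in GENCODE M21. The test was checked on simulated counts. All 86 genes were found in GENCODE, 85 with identical coordinates. Peaks were placed by their midpoint and compared with bedtools 2.31.1 at an overlap of at least 1 bp. A start site is the 5' end of the gene in GENCODE. Coordinates count from 1. 74 of the 86 genes had a RefSeq promoter of GRCm38.p6.

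The segment, the role lists, the pyrimidine list and the markers were chosen with earlier results of these data known. Values in every library are given for the 15 genes past the threshold with the largest changes and for up to 4 genes per list with the smallest p. Values of some single genes are not reported here. Replicate numbers did not pair the samples (correlation of same-numbered deviations 0.0004). Markers of smooth muscle and pericytes gave 2 genes higher and 3 lower in KO of 5 tested. Cardiomyocyte markers gave 1 lower of 1, and epicardial markers 1 higher and 4 lower of 5. Over all tested genes 18.3% were higher and 17.4% lower. Alternatives were DESeq2 1.42.0, other scalings and filters, assumed biological coefficients of variation (BCV), leaving out each library, other bounds of the segment, and other overlap and peak thresholds. No columns of other samples were in the files used.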

Additional observations from a re-analysis of the deposited data

How the results depend on the processing

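The number of segment genes past the threshold depended most on the assumed spread. The fitted BCV was 0.0311. With an assumed BCV of 0.2, 9 were higher and 0 lower in KO, or 16.7% of the tested genes of the segment beside 3.26% of all. With a BCV of 0.1, 22 passed, 2 of them lower, or 40.7% beside 14.6% of all. DESeq2 gave 17 higher, and it called 42.6% of the tested genes of the segment beside 16.9% of all. It kept 23 of the 36 calls and lost Rap1gap, Sh2d5, C1qa, C1qc, Klhdc7a, Asap3, Pla2g2e, Zfp46, Pithd1, Hp1bp3, Eif4g3, Usp48 and Micos10, while a BCV of 0.2 kept Cda, Alpl, C1qb, Aldh4a1, Rap1gap, Camk2n1, Zbtb40, Otud3 and Lypla2. Leaving out 1 library gave 21 to 25 higher and 5 to 8 lower genes, with 5 lower without KO replicate 2, in fits where a lone sample is assumed to vary like the others. In the left flank DESeq2 gave 12 higher and 3 lower, a BCV of 0.2 gave 5 and 0, and a BCV of 0.1 gave 15 and 2. In the right flank a BCV of 0.2 gave 2 higher and 1 lower, and a BCV of 0.1 gave 2 lower. These flank counts stand beside the shares of all genes given above for the same settings. On the pyrimidine list, higher genes numbered 2 by DESeq2, with DESeq2 size factors, with no filter on low counts and at a BCV of 0.1, 1 at a BCV of 0.2 and 2 to 4 with 1 library left out. Lower genes there numbered 0 by DESeq2 and at either assumed BCV, and 2 to 4 with 1 library left out. The median log2 fold change of the segment was 0.26 to 0.30 with 1 library left out, the lowest without KO replicate 1, and 0.28 without Cda, a choice made after seeing the data. The share of peaks without a counterpart was 35.7% in KO and 29.7% in WT when at least 50% of either peak had to overlap. It was 17.7% in KO and 9.51% in WT for peaks with a −log10 q-value of at least 5, and 32.8% in KO and 13.9% in WT with that limit in both lists, beside 24.3% in KO and 13.1% in WT over the genome. The cause of these differences was not tested beyond what the settings themselves change. The fit with a replicate block kept all 36 calls and gave 30 higher and 9 lower genes in the segment, 4408 over all genes. For single genes of the segment, the flanks and the pyrimidine list, and for Acta2, 256 values under an alternative no longer passed and 30 newly passed. Where a gene passed in the main or the alternative fit, 0 changed direction. Changes of sign in genes that passed in neither were not counted. Limits are the 2 libraries per genotype, the WT counts of 2 and 6 behind the size of the Cda ratio, the counts under 50 of the C1q genes, and the single ATAC-seq library per genotype, whose depth is unknown.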
